A study of Mus musculus with 10 samples.

Results

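Long noncoding RNAs are transcripts that are processed like messenger RNAs in many cases but code for no protein. The 8 RNAs described here are Malat1, Neat1, Meg3, Rian, Mirg, Miat, Snhg11 and Sox2ot, long noncoding RNAs of cell nuclei or nervous tissue. Not all were abundant here, as Mirg had at most 84 and Sox2ot at most 109 counts in a library. The 8 RNAs were chosen by gene symbol from the 50559 genes counted in the 10 libraries. The rule uses no measured value, though earlier results of these data were known when the RNAs were picked. All 8 had at least 10 counts in every library and all 8 passed the filter on low counts that left 29952 genes for testing.

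RNA was sequenced from formalin-fixed, paraffin-embedded (FFPE) mouse tissue in 3 groups. The 4 MYC/SMARCA4 tumors, aged 112, 96, 89 and 79 days for tumors 1 to 4 and sampled as punches, had grown in cerebella of CD1nu/nu hosts, which lack T cells. They arose from granule cell precursors (GCPs) of Math1-creERT2::Smarca4fl/fl pups given tamoxifen, which were transduced with a lentivirus for murine Myc and GFP and transplanted without sorting. The 3 P7 cerebella were whole cerebella of mice aged 7 days of the same Math1-creERT2::Smarca4fl/fl genotype, given 0.4 mg tamoxifen at P3. They are therefore no wild-type tissue, and like the tumors they carry the Smarca4 deletion in recombined cells. The 3 SHH MB were medulloblastomas of Math1-cre::Smofl/wt mice with a labelled age of 7 days and no tamoxifen. In both Cre lines the Math1 promoter drives recombination in the granule cell lineage, so that other cells of the tissue keep their alleles, and the punches can also hold host cells.

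Malat1 is a marker of nuclear speckles, the nuclear bodies rich in splicing factors. Neat1 in its long form is the scaffold of paraspeckles, nuclear bodies that hold RNA-binding proteins such as Nono and Sfpq. Meg3, Rian and Mirg lie one after the other in the imprinted Dlk1-Dio3 domain, where the noncoding RNAs are expressed from the maternal and the protein-coding genes Dlk1, Rtl1 and Dio3 from the paternal chromosome. Meg3 is known for high expression in brain, Rian hosts small nucleolar RNAs (snoRNAs) and Mirg hosts a cluster of microRNAs. Miat, also called Gomafu, forms its own nuclear domains in neurons and binds splicing regulators such as Qki, Celf3 and Sf1. Snhg11 is a snoRNA host gene expressed in neurons, and Sox2ot spans the gene of the stem cell factor Sox2.

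Malat1 (chr19:5845717-5853602, minus strand) and Neat1 (chr19:5874736-5897132, minus strand) are neighbours on GRCm39. Malat1 and the long form of Neat1 are cleaved at an end that is not a conventional poly(A) tail. Counts are per gene and do not tell the 24 annotated transcripts of Neat1 apart. The 3′ ends of Malat1 and of long Neat1 are known to fold into a triple helix of U-rich and A-rich stretches. These 3′ elements are shown because they are the sequence both RNAs share. Capitals mark the runs of at least 10 bases that occur in both, which are 13, 16 and 11 bases long. The Malat1 element is chr19:5846010-5846099 and the Neat1 element chr19:5874736-5874831, both 5′ to 3′ on the minus strand:
Malat1: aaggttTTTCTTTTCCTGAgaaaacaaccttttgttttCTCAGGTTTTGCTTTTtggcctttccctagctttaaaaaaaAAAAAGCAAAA
Neat1: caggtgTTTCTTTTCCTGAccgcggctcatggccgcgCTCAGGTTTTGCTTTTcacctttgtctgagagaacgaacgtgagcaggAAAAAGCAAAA

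Meg3 (chr12:109506877-109538165), Rian (chr12:109570242-109628150) and Mirg (chr12:109696198-109715898) are all on the plus strand of chromosome 12. A promoter of Meg3 is shown because Meg3, Rian and Mirg were correlated over the libraries, as described with their levels. This was not particular to the domain, as Meg3 followed Snhg11, on another chromosome, more closely. RefSeq promoter sequences (from 250 bases before to 50 bases after the start) were matched for 6 of the 8 RNAs, from a table of build GRCm38.p6, and located on GRCm39 by their exact sequence. Both strands were searched for the cAMP response element TGACGTCA. They were also searched for the TATA box, spelled TATAAA. In the Meg3 promoter at chr12:109506629-109506928, plus strand, capitals mark TGACGTCA from 57 bases before the start and overlapping TATA box matches from 29 (opposite strand) and 25 bases before it:
Meg3 promoter: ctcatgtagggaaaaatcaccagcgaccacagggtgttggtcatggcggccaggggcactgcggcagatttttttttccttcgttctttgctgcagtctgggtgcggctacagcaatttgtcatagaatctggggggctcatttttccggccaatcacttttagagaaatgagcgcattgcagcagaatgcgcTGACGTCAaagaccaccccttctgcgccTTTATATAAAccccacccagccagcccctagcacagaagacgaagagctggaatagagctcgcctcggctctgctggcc

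Of 32851 RefSeq promoters of this length, 1.79% held the cAMP response element and 13.6% the TATA box. The E-box CACGTG, which MYC can bind, was searched as well and was held by 7.15%. It was in none of the matched promoters of the 6 RNAs. The promoters of Malat1, Rian, Mirg, Miat and Snhg11 held none of the 3 motifs, and neither did a second promoter of Meg3 at chr12:109511031-109511330. The promoters of Malat1, Mirg and Miat lie within the gene spans printed here, whose starts come from a different annotation. Miat was the RNA with the largest difference between groups. Miat lies at chr5:112361094-112377261, and its promoter at chr5:112376765-112377064, minus strand, is shown for the size of its difference, with no part in capitals:
Miat promoter: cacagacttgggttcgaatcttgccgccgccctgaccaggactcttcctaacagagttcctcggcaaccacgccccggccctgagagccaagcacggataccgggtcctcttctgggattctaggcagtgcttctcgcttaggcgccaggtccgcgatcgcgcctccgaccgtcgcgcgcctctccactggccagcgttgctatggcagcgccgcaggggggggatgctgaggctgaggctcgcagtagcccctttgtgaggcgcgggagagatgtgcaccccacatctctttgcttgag

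Snhg11 lies at chr2:158217558-158228071 and Sox2ot at chr3:34158419-34789489, both on the plus strand.

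The libraries held between 5663491 and 9352109 counts, and 3 counts in a library equalled between 0.307 and 0.744 CPM (counts scaled to a common library size). Myc had 614 to 11342 counts in each tumor, against 91 to 322 in P7 cerebella and SHH MB. Smarca4, whose counts include transcripts of recombined alleles, was lower in tumors than in SHH MB (log2 fold change −1.39 ± 0.28, adjusted p = 0.0157) and did not differ beyond the spread from P7 cerebella (−0.30 ± 0.28, adjusted p = 0.495). The tumors differed far more from each other than the libraries of the other groups did. Tumor 1 held the lowest Myc count, the highest mitochondrial share (6.36% of counts) and the lowest summed level of 6 proliferation markers (103 CPM, against 1524 to 1736 CPM in tumors 2 to 4). Tumor 3 stood apart at the other end, with the lowest summed level of 7 pan-neuronal markers (517 CPM, against 1649 to 4895 CPM in the other tumors). Fold changes of the tumors are therefore also given without each of these libraries.

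Of the 8 RNAs, 2 differed in the tumors from P7 cerebella: Neat1 rose and Miat fell. The same RNAs were called against SHH MB, in the same directions. Both comparisons share the 4 tumors. The tumors were also the only libraries labelled 79 to 112 days and grown in CD1nu/nu hosts, while all others were labelled 7 days. Differences of the tumors from either group therefore cannot be told apart from age and host. Calls here are at an adjusted p of at most 0.05 from the quasi-likelihood test of edgeR over all 29952 genes. Against P7 cerebella the called RNAs were 2 of 8, where 6.25% of all genes tested were called (3.99% higher and 2.27% lower). Against SHH MB they were also 2 of 8, where 4.68% of all genes were called (2.43% higher and 2.26% lower). By the stricter thresholds of the study, a fold change of 2.5 or more on the log2 scale in either direction with an adjusted p up to 0.01, none of the 8 was called against P7 cerebella, where 0.29% of all genes were, and Miat was called against SHH MB, where 0.601% were. The median log2 fold change of the 8 RNAs was 0.27 against P7 cerebella, where that of all genes was −0.05, and 1.14 against SHH MB, where it was 0.01. Between SHH MB and P7 cerebella none was called, where 0.224% of all genes were (0.177% higher and 0.0467% lower in SHH MB), and none by the stricter thresholds, where 0.01% were.

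**Figure D1:**
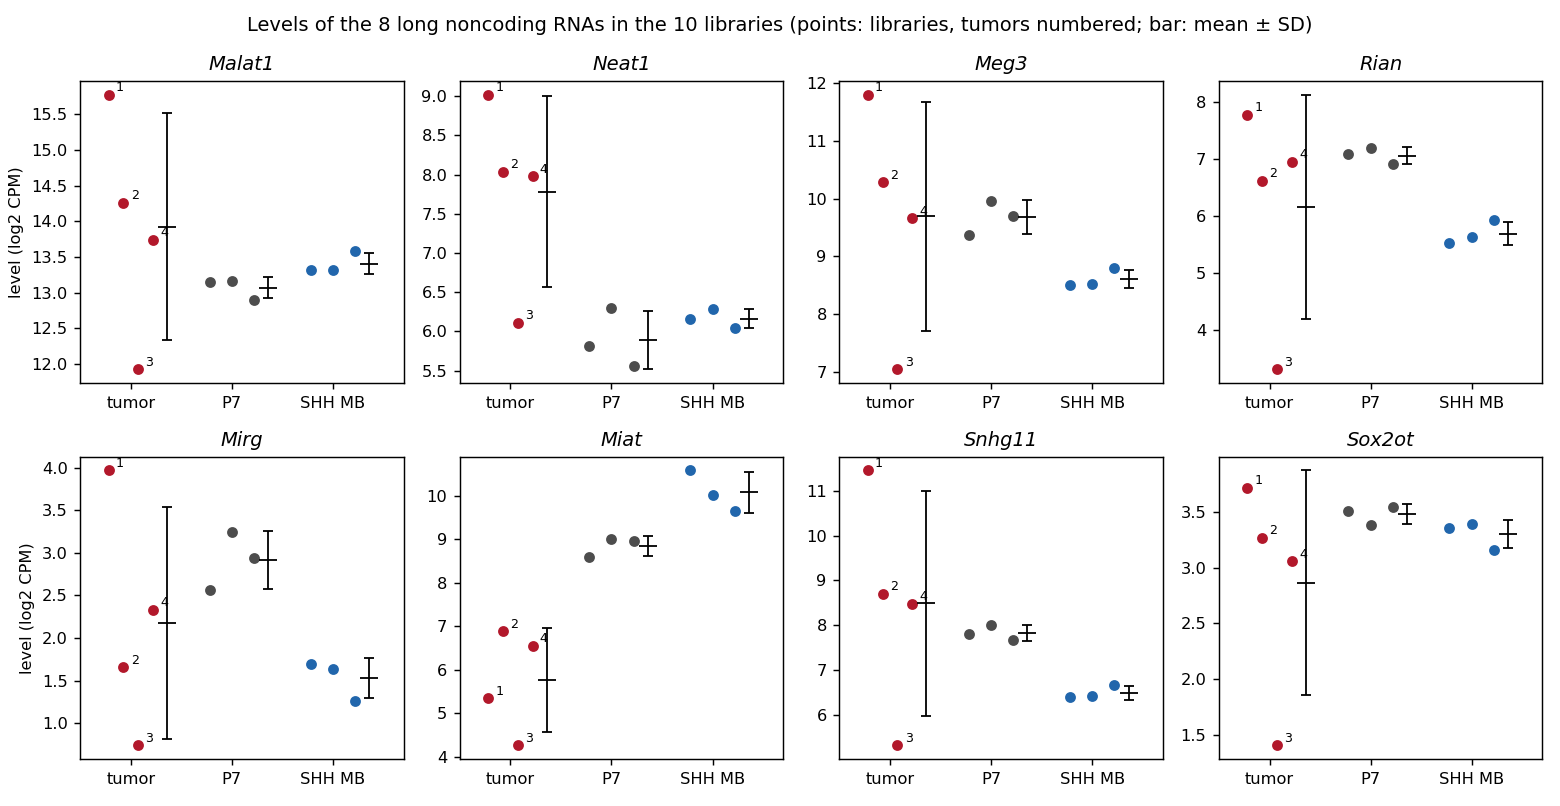
Level of each RNA on the log2 CPM scale (y axis, a separate range for each RNA) in the 4 MYC/SMARCA4 tumors (numbered), 3 P7 cerebella and 3 SHH MB. Each point is a library, and the bar beside a group is its mean ± SD. Miat was lower in every tumor than in every other library, and tumor 3 was the lowest tumor for all 8 RNAs.

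Miat showed the largest difference of the 8. Tumors 1 to 4 had Miat levels of 5.35, 6.88, 4.27 and 6.56 log2 CPM, against 8.59, 8.997 and 8.97 in P7 cerebella 1 to 3, and 10.58, 10.02 and 9.65 in SHH MB 1 to 3. All 4 tumors lay below all other libraries, and all 3 SHH MB above all P7 cerebella. Miat was the 1 RNA of 8 whose levels in tumors did not overlap with a control group. Of all genes, 21% did not overlap between tumors and P7 cerebella (10.3% higher and 10.7% lower in tumors) and 16.1% between tumors and SHH MB (7.83% higher and 8.3% lower). In counts, the tumors held between 136 and 771, the P7 cerebella between 3520 and 4677, and the SHH MB between 5646 and 9856.

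The fitted difference of Miat was −2.78 ± 0.52 (log2 fold change ± standard error) in tumors against P7 cerebella, a 6.86-fold lower level (adjusted p = 0.0128). Against SHH MB it was −4.05 ± 0.54, or 16.6-fold lower (adjusted p = 0.0014). The exact two-sided permutation test gave p = 0.0571 for both, the smallest p that 4 against 3 samples allow. Without tumor 3 the values were −2.58 (adjusted p = 0.00375) and −3.84 (adjusted p = 0.000488), and without tumor 1 they were −2.58 (adjusted p = 0.00523) and −3.88 (adjusted p = 0.000934). The call against P7 cerebella was lost without P7 cerebellum 2 (adjusted p = 0.077) or 3 (adjusted p = 0.0652) and in a fit of only these groups (−2.89, adjusted p = 0.0513), in which 0.813% of all genes were called, while the call against SHH MB held in all alternatives tried, the fit of only those groups included (adjusted p = 0.0139, with 1.48% of all genes called).

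Of 3 genes chosen as encoding partners of the Miat RNA, Qki (listed as Qk), Celf3 and Sf1, none was called in any of the 3 comparisons. This list need not hold all partners. Qk, a splicing regulator of glia, had a log2 fold change of −0.49 ± 0.33 against P7 cerebella and −0.74 ± 0.33 against SHH MB. Its level was below that of every SHH MB in each of the 4 tumors. Celf3, a neuronal splicing regulator, was at −0.67 ± 0.31 and −0.69 ± 0.31, and Sf1, which recognises the intron branch point, at 0.84 ± 0.24 (adjusted p = 0.0594) and 0.13 ± 0.24. The 3 genes whose levels followed Miat most closely over the 10 libraries were Galnt2, Tbc1d16 and Egfr, the receptor of epidermal growth factor, with Pearson r of 0.984, 0.978 and 0.976 among 10044 genes with a mean of at least 4 log2 CPM. The 10 points share 3 groups, which holds for every r given here. Gm26953, a long noncoding gene on the opposite strand, shares 3433 bases of exons with Miat. It had no row in the count files analysed here, so that its reads cannot be told apart from those of Miat if strand was not used in counting.

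Markers of GCPs were set beside Miat. Of 6 GCP markers, Barhl1, Mycn and Sfrp1 were called lower in the tumors against both groups. Sfrp1, a secreted inhibitor of WNT signaling, fell most (−4.20 ± 0.40 and −6.05 ± 0.43). Atoh1, Gli1 and Ccnd2 were not called against either group. They were at −0.56 ± 0.77, 0.12 ± 0.54 and −0.35 ± 0.84 against P7 cerebella. Against SHH MB they were at −2.95 ± 0.79, −1.62 ± 0.54 and 0.09 ± 0.85. Tumor 2 had a higher summed GCP level than any P7 cerebellum, but a lower mean log2 level of the 6 markers than any of them. The differences of that mean from the P7 mean were −4.28, −1.45, −1.70 and −2.60 log2 CPM in tumors 1 to 4. The summed level of the 6 GCP markers was 59.5 to 1776 CPM in tumors, 1032 to 1512 CPM in P7 cerebella and 1904 to 1943 CPM in SHH MB. None of the 6 was at 0 in all libraries of a group. Tumor 1, with the lowest GCP level, and tumor 3, with the lowest Miat level, were different libraries. The list of astrocytes and Bergmann glia had the same order of tumors as Miat. Its summed levels were 297, 1062, 186 and 655 CPM in tumors 1 to 4. They were 1625 to 1679 CPM in P7 cerebella and 861 to 951 CPM in SHH MB, where Miat was higher than in P7 cerebella. The part of cell composition in the Miat difference was not tested. In bulk samples, fewer cells of a type and less RNA per cell cannot be told apart.

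**Figure D2:**
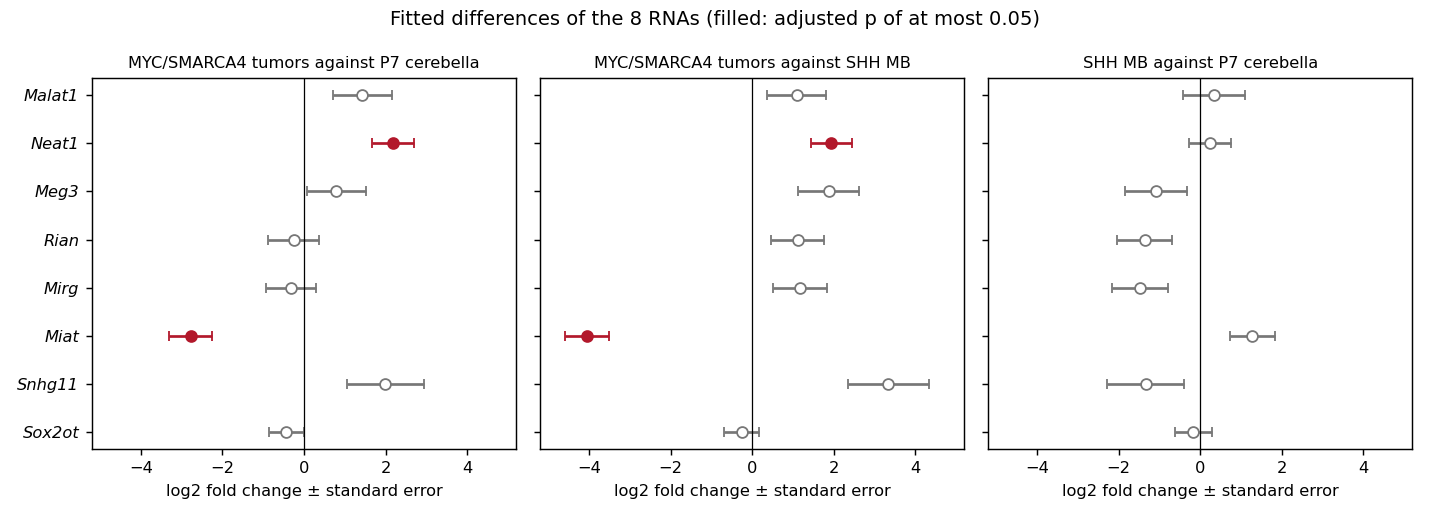
Fitted log2 fold change (x axis, bars are standard errors) of each RNA (y axis) in the 3 comparisons from the fit of all 10 libraries. Filled points mark an adjusted p of at most 0.05, which only Neat1 and Miat reached, in both comparisons of the tumors.

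Neat1 was the RNA that rose. Tumors 1 to 4 stood at 9.02, 8.03, 6.11 and 7.98 log2 CPM, against 5.81, 6.29 and 5.56 in P7 cerebella and 6.16, 6.29 and 6.04 in SHH MB. Tumors 1, 2 and 4 lay above all other libraries, and tumor 3 lay within their range. In counts, the tumors held 2092, 1454, 490 and 2065.

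The fitted increase of Neat1 was 2.19 ± 0.52 on the log2 scale against P7 cerebella, or 4.56-fold (adjusted p = 0.0294), and 1.94 ± 0.51 against SHH MB, or 3.84-fold (adjusted p = 0.0486). Exact two-sided permutation tests gave p = 0.114 and p = 0.171. The tumors had the same order by Neat1 as by the summed levels of markers of mature granule neurons. Those levels were 5334, 2183, 293 and 1348 CPM in tumors 1 to 4, 793 to 1074 CPM in P7 cerebella and 300 to 375 CPM in SHH MB. Tumors 2 and 4 were nearly tied for Neat1, and by share of counts their order was reversed (0.0209% and 0.0221%). The part of such cells in the Neat1 increase was not tested. Without tumor 3 the values were 2.31 (adjusted p = 0.00108) and 2.08 (adjusted p = 0.000971), and without tumor 1 they were 1.70 (adjusted p = 0.0135) and 1.43 (adjusted p = 0.0424). The call was less firm than that of Miat. Against P7 cerebella it was lost without tumor 2 (adjusted p = 0.0539) and without any 1 of the 6 P7 and SHH MB libraries (adjusted p between 0.0547 and 0.154). Against SHH MB it was lost without tumor 2 (adjusted p = 0.0824), tumor 4 (adjusted p = 0.0653) or any 1 of the same 6 libraries (adjusted p between 0.0735 and 0.228).

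Frmd8os, a long noncoding gene on the opposite strand, shares 412 bases with Neat1. It had between 13 and 50 counts per library, where Neat1 had at least 328. The genes most like Neat1 over the 10 libraries were Fto, an RNA demethylase, Emc1, a subunit of a membrane protein complex, and Htt, the huntingtin gene, with r of 0.989, 0.987 and 0.981.

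The protein partners of Neat1 in paraspeckles differed less. Of 11 paraspeckle protein genes, all had a fold change above 0 against P7 cerebella (median log2 fold change 0.61), and 1 was called, Tardbp, an RNA-binding protein that shuttles to the nucleus (1.28 ± 0.28, adjusted p = 0.0224). Against SHH MB 6 of 11 were above 0, none was called and the median was 0.15. Their summed level was 2068 to 3008 CPM in tumors, 1463 to 1865 CPM in P7 cerebella and 2428 to 2767 CPM in SHH MB. The ranges of tumors and SHH MB thus overlapped for these genes, and those of tumors and P7 cerebella did not.

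Malat1 was the most abundant of the 8 RNAs in every library. It had the highest count of all genes in tumors 1 and 2 and in all 6 other libraries, and ranked 5 in tumor 3 and 3 in tumor 4. Its share of all counts was 3.45%, 1.57%, 0.491% and 1.20% in tumors 1 to 4, 0.991%, 1.04% and 0.904% in P7 cerebella, and 1.11%, 1.10% and 1.23% in SHH MB. The share was highest in tumor 1 and lowest in tumor 3, with both control groups in a narrow range between.

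On the log2 CPM scale the Malat1 level was 15.77, 14.26, 11.93 and 13.74 in tumors, 13.15, 13.17 and 12.90 in P7 cerebella and 13.32, 13.32 and 13.58 in SHH MB. The difference was 1.43 ± 0.73 against P7 cerebella (adjusted p = 0.237) and 1.09 ± 0.72 against SHH MB (adjusted p = 0.435), neither beyond the spread between tumors. Without tumor 3 the value against P7 cerebella was 1.55 and was called (adjusted p = 0.0275), and without tumor 1 it was 0.54 (adjusted p = 0.469). Against SHH MB it was 1.23 without tumor 3 (adjusted p = 0.0743) and 0.18 without tumor 1 (adjusted p = 0.881). Genes most like Malat1 were Crebrf, Ccdc186 and Aars, with r of 0.997, 0.995 and 0.991.

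Genes of nuclear speckle proteins, the bodies in which Malat1 RNA resides, were above 0 in 10 of 10 cases against P7 cerebella, with a median of 0.86. The called genes were 3 of 10: the splicing factors Srsf1 (1.22 ± 0.30), Srsf2 (1.26 ± 0.33) and Rbm25 (0.98 ± 0.25). Against SHH MB none was called and the median was 0.23. Their summed level was 3208 to 5214 CPM in tumors, 2104 to 2477 CPM in P7 cerebella and 3594 to 4371 CPM in SHH MB.

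The ratio of Neat1 to Malat1 within a library does not depend on library size. Per 100 Malat1 counts there were 0.926, 1.33, 1.76 and 1.84 Neat1 counts in tumors 1 to 4. In P7 cerebella there were 0.616, 0.849 and 0.611 and in SHH MB 0.693, 0.762 and 0.535. All 4 tumors, tumor 3 among them, lay above all 6 other libraries. Tumor 1, with the highest level of both RNAs, had the lowest ratio of the tumors. These ratios are given as a description, without a test.

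**Figure D3:**
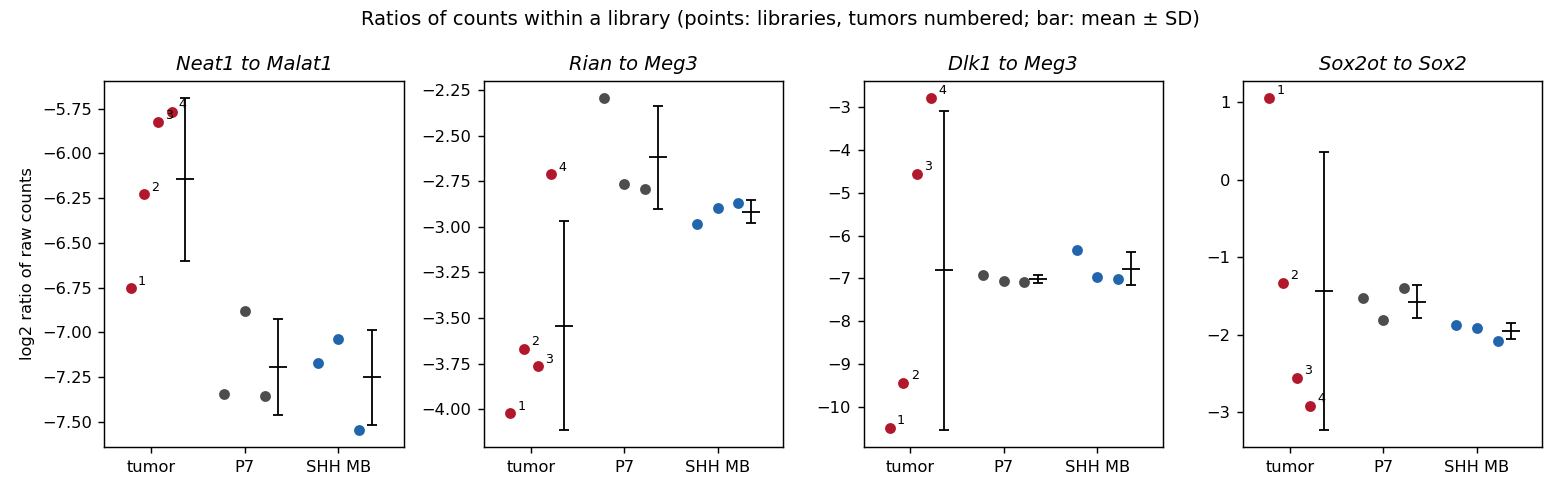
Log2 ratio of raw counts of 2 genes within a library (y axis) in the 4 MYC/SMARCA4 tumors (numbered), 3 P7 cerebella and 3 SHH MB, with mean ± SD beside each group. The Neat1 to Malat1 ratio was higher in all 4 tumors than in the other 6 libraries, Rian to Meg3 was lowest in tumors 1 to 3, and Dlk1 to Meg3 and Sox2ot to Sox2 were spread most widely among the tumors.

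Meg3, Rian and Mirg did not differ between tumors and P7 cerebella beyond the spread between tumors. Meg3 was at 11.80, 10.28, 7.04 and 9.66 log2 CPM in tumors 1 to 4, 9.38, 9.96 and 9.70 in P7 cerebella and 8.50, 8.52 and 8.79 in SHH MB. The tumors spanned a 27.1-fold range, with tumor 3 below and tumor 1 above all other libraries. The fitted difference of Meg3 was 0.79 ± 0.72 against P7 cerebella (adjusted p = 0.481) and 0.94 without tumor 3 (adjusted p = 0.0944), where the difference of mean log2 levels was 0.02. The fit works on mean counts, in which tumor 1 weighs most, and without tumor 1 it gave −0.17 (adjusted p = 0.852).

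Against SHH MB the fitted difference of Meg3 was 1.88 ± 0.75 (adjusted p = 0.185), it was called without tumor 3 (2.04, adjusted p = 0.00833), and without tumor 1 it was 0.89 (adjusted p = 0.386). Among the genes most like Meg3 were Tecpr1, an autophagy factor, and Hk1, the hexokinase of brain, with r of 0.993 and 0.992.

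Rian was at 7.78, 6.62, 3.31 and 6.95 log2 CPM in tumors, 7.09, 7.19 and 6.91 in P7 cerebella and 5.52, 5.63 and 5.93 in SHH MB. Tumor 3, with 69 counts, was far below every other library, and tumors 1, 2 and 4 were above all SHH MB. The fitted difference was −0.25 ± 0.62 against P7 cerebella (adjusted p = 0.806) and 1.11 ± 0.65 against SHH MB (adjusted p = 0.367), the latter called without tumor 3 (1.31, adjusted p = 0.00518). Without tumor 1 the values were −0.78 (adjusted p = 0.387) and 0.56 (adjusted p = 0.649), and against P7 cerebella without tumor 3 it was −0.07 (adjusted p = 0.83). Genes most like Rian were Cdh12, Cadm2, both cell adhesion molecules, and Cst3, cystatin C, with r of 0.985, 0.980 and 0.979.

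Mirg had the lowest count of the 8 in every library but tumor 1, where Sox2ot was lower, with 62, 16, 10 and 39 counts in tumors 1 to 4, 55, 84 and 52 in P7 cerebella and 19, 24 and 15 in SHH MB. Tumors 2, 3 and 4 lay below all P7 cerebella and tumor 1 above them. The fitted difference was −0.32 ± 0.62 against P7 cerebella (adjusted p = 0.751) and 1.17 ± 0.66 against SHH MB (adjusted p = 0.354). Without tumor 1 the values were −1.27 (adjusted p = 0.0753) and 0.19 (adjusted p = 0.874), and without tumor 3 they were −0.22 (adjusted p = 0.736) and 1.27 (adjusted p = 0.0854). Genes most like Mirg were Zfp385c, Slc32a1, the vesicular GABA transporter, and Fstl4, with r of 0.962, 0.960 and 0.958.

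The 3 RNAs of the domain did not keep the same proportion in every tumor. Per 100 Meg3 counts there were 6.15, 7.86, 7.36 and 15.3 Rian counts in tumors 1 to 4, 20.4, 14.7 and 14.4 in P7 cerebella, and 12.6, 13.4 and 13.7 in SHH MB. Tumors 1 to 3 thus lay below all control libraries and tumor 4 among them. For Mirg the ratio was 0.431, 0.231, 1.07 and 0.588 per 100 in tumors and ranged from 0.481 to 0.923 in the other 6 libraries. Over the 10 libraries the log2 CPM of Meg3 had r of 0.908 with Rian and 0.846 with Mirg, a description over libraries that share groups. With RNAs outside the domain, Meg3 had r of 0.969 for Snhg11 and 0.863 for Malat1.

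The protein-coding genes of the domain were tested beside them, and none of Begain, Dlk1, Rtl1 and Dio3 was called in any comparison. Dlk1, a transmembrane protein of the Notch ligand family, had 10, 10, 40 and 968 counts in tumors 1 to 4, between 43 and 68 in P7 cerebella and between 24 and 29 in SHH MB. Tumor 4 was far above all other libraries and tumors 1 and 2 below all of them, and the fold changes of 2.34 ± 1.15 and 3.16 ± 1.21 rest on tumor 4. Per 100 Meg3 counts there were 0.0695, 0.144, 4.26 and 14.6 Dlk1 counts in tumors, against 0.739 to 1.24 in the other 6 libraries.

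Rtl1, a gene derived from a retrotransposon, kept a narrower ratio to Meg3 than Dlk1 did. Its counts were 3731, 1512, 277 and 3129 in tumors, and it had 21.8 to 47.2 counts per 100 Meg3 counts in tumors and 25.9 to 32.9 in the other libraries. Rtl1 lies on the opposite strand and overlaps the span of Rian, though no exon of it, and the strand setting of the counting is not known. Its fold change was 0.81 ± 0.67 against P7 cerebella and 1.72 ± 0.69 against SHH MB. Begain, which encodes a postsynaptic protein, differed little (0.22 ± 0.28 and 0.13 ± 0.28), and Dio3, the enzyme that inactivates thyroid hormone, had at most 17 counts in any library.

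The small RNAs inside these genes were barely counted. Of the microRNA hairpins listed as genes, 14 lie in Mirg with at most 12 counts in a library, 3 in Rian with at most 23 and 2 in Meg3 with none in any library. A total RNA library is not made to capture mature microRNAs, and hairpin reads can be part of the host RNA. Among the mature microRNAs of Meg3, Rian and Mirg, 35 in number, only miR-453 and miR-496a-5p of Mirg share a seed. These are shown from RefSeq, 5′ to 3′, with the seed (bases 2 to 8) in capitals:
miR-453: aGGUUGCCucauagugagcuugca
miR-496a-5p: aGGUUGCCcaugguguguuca

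Their hairpin genes Mir453 and Mir496a had at most 7 and 12 counts, both in P7 cerebella. Of the 13 snoRNA genes that GENCODE places in Rian, 5 had a row in the count files, with at most 60 counts, a value reached by AF357425 in a tumor.

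Snhg11 showed the widest range among the tumors, 70.4-fold. In tumors 1 to 4 it stood at 11.45, 8.70, 5.32 and 8.48 log2 CPM, against 7.79, 8.01 and 7.66 in P7 cerebella and 6.38, 6.41 and 6.65 in SHH MB. Tumors 1, 2 and 4 lay above all other libraries and tumor 3 below all. In counts, tumor 1 held 11318 and tumor 3 held 283.

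The fitted difference of Snhg11 was 2.00 ± 0.93 against P7 cerebella (adjusted p = 0.202) and 3.34 ± 1.00 against SHH MB (adjusted p = 0.0787). Without tumor 3 both were called, at 2.12 (adjusted p = 0.0204) and 3.48 (adjusted p = 0.00437), and without tumor 1 the values were 0.27 (adjusted p = 0.763) and 1.59 (adjusted p = 0.109). Snhg11 and Meg3 had r of 0.969 over the 10 libraries. Genes most like Snhg11 were Abhd12, a lipase, Mgrn1, a ubiquitin ligase, and Fgf12, which regulates sodium channels of neurons, with r of 0.996, 0.994 and 0.993. The snoRNA gene Gm25129, in an intron of Snhg11, had up to 106 counts in a tumor and at most 7 in the other groups.

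The order of the tumors by Snhg11, Meg3, Malat1, Neat1 and Sox2ot was the same, with tumor 1 highest, then 2, then 4, then 3. Lists of neuronal markers had this order as well. For Neat1, tumors 2 and 4 were nearly tied. The TMM factors behind these levels were 0.619, 0.802, 1.28 and 0.881 in tumors 1 to 4 and 1.01 to 1.20 in the other libraries. A lower factor raises the level, so scaling raised tumor 1 and lowered tumor 3 relative to the other tumors. The mean level of 7 mature granule neuron markers was 9.35, 8.10, 5.12 and 7.36 log2 CPM in tumors 1 to 4, with means of 5.95 in P7 cerebella and 4.56 in SHH MB. Of these, Gabra6, Cbln3, Grin2c and Slc17a7 rose in tumors against both groups. Cbln1, Fat2 and Etv1 were called against neither group and were at −0.04 ± 0.67, 0.02 ± 0.56 and 2.66 ± 0.76 against P7 cerebella. Of the 7 pan-neuronal markers, 5 had a fold change below 0 against P7 cerebella (median −0.72) and none was called higher. Against SHH MB 4 of 7 were above 0 (median 0.04), and Snap25 and Syt1 were called higher. Tubb3, a tubulin of young neurons, fell against both groups (−1.56 ± 0.27, adjusted p = 0.0101, and −1.08 ± 0.27, adjusted p = 0.0407). Sst, somatostatin, fell against P7 cerebella (−2.62 ± 0.57, adjusted p = 0.0211). Markers of Purkinje cells summed to 10917, 2592, 340 and 1803 CPM in tumors 1 to 4, 1190 to 1336 CPM in P7 cerebella and 329 to 595 CPM in SHH MB.

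Markers of inhibitory interneurons summed to 63.8 to 2580 CPM in tumors, 439 to 475 CPM in P7 cerebella and 176 to 251 CPM in SHH MB. Those of myelinating oligodendrocytes summed to 104 to 3909 CPM in tumors, 919 to 1098 CPM in P7 cerebella and 111 to 373 CPM in SHH MB. Tumor 1 was the highest tumor and tumor 3 the lowest in both lists. No marker of these lists was at 0 in all libraries of a group. The part of such cells in the levels of Snhg11, Meg3, Malat1, Neat1 and Sox2ot was not tested.

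**Figure D4:**
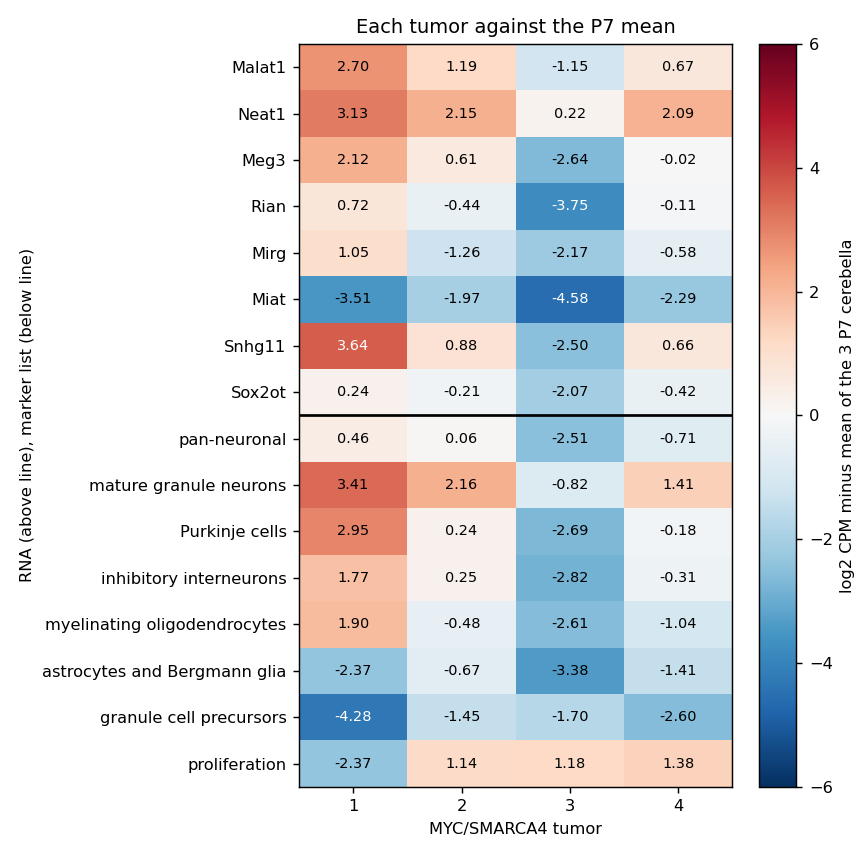
Difference of each MYC/SMARCA4 tumor (columns) from the mean of the 3 P7 cerebella on the log2 CPM scale (color and printed value), for the 8 RNAs (above the line) and the mean of 8 marker lists (below it). Snhg11 ran from 3.64 in tumor 1 to −2.50 in tumor 3 and the mature granule neuron list from 3.41 to −0.82, while Miat was negative in all 4 tumors.

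Of the other marker lists, that of endothelium had the same order of tumors, and those of proliferation, astrocytes and Bergmann glia, choroid plexus, microglia and erythrocytes did not. Proliferation markers were 2.37 below the P7 mean in tumor 1 and between 1.14 and 1.38 above it in tumors 2 to 4 on the log2 scale. Markers of astrocytes and Bergmann glia were below the P7 mean in all 4 tumors (by 0.67 to 3.38), and 3 of 6, Aqp4, Aldh1l1 and Gdf10, fell against P7 cerebella, while Gja1, a connexin, was at 0.42 ± 0.44 (adjusted p = 0.544). Choroid plexus markers summed to at most 20.8 CPM in tumors, 544 to 1135 CPM in P7 cerebella and 248 to 1244 CPM in SHH MB, with Ttr, transthyretin, at −8.91 ± 0.81 against P7 cerebella. Microglia (38.5 to 144 CPM), endothelium (89.4 to 335 CPM) and erythrocytes (30.9 to 196 CPM) spanned ranges in the tumors that included those of the P7 cerebella.

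Sox2ot was not called in any comparison. Its counts were 52, 52, 17 and 66 in tumors 1 to 4, 109, 93 and 80 in P7 cerebella and 64, 87 and 61 in SHH MB, or 3.72, 3.27, 1.41 and 3.06 log2 CPM in tumors, 3.51, 3.38 and 3.55 in P7 cerebella and 3.35, 3.40 and 3.16 in SHH MB. Tumor 3 was below all other libraries. The fitted difference was −0.43 ± 0.43 against P7 cerebella (adjusted p = 0.516) and −0.25 ± 0.43 against SHH MB (adjusted p = 0.785). Without tumor 1 the values were −0.72 (adjusted p = 0.243) and −0.56 (adjusted p = 0.467), and without tumor 3 they were −0.30 (adjusted p = 0.381) and −0.10 (adjusted p = 0.789). Among the genes most like Sox2ot were Sult4a1, a brain sulfotransferase, and Nlgn1, a neuroligin of synapses, with r of 0.980 and 0.978.

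Sox2 lies within the span of Sox2ot on the same strand. It had 25, 131, 100 and 498 counts in tumors and was not called (−0.31 ± 0.53 and −0.50 ± 0.53). The Sox2ot count was thus above that of Sox2 only in tumor 1, with 208 Sox2ot counts per 100 Sox2 counts, then 39.7, 17.0 and 13.3 in tumors 2, 3 and 4. The other 6 libraries lay between 23.7 and 38.1. Gm20515, a long noncoding gene on the opposite strand that shares 1108 bases of exons with Sox2ot, had 35 to 269 counts in tumors and 244 to 392 in the other libraries, more than Sox2ot in each of the latter, and reads in the shared bases can be assigned only where strand was used in counting.

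SHH MB and P7 cerebella differed in most of the 8 RNAs by more than the spread within these groups, but not by more than the spread of the fit that includes the tumors. Groups did not overlap for 6 of 8 RNAs: Malat1 and Miat were higher and Meg3, Rian, Mirg and Snhg11 lower in SHH MB. Of all genes tested, 36.8% had groups without overlap in this comparison (17.8% higher and 19% lower in SHH MB), and the exact permutation test of 3 against 3 cannot go below p = 0.1.

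In the fit of all 10 libraries Miat had a log2 fold change of 1.27 ± 0.55 (adjusted p = 0.532), Rian −1.37 ± 0.68 (adjusted p = 0.61), Mirg −1.48 ± 0.68 (adjusted p = 0.566), Snhg11 −1.34 ± 0.95 (adjusted p = 0.759) and Meg3 −1.09 ± 0.76 (adjusted p = 0.756). At an unadjusted p under 0.05, 2 of 8 passed (Mirg and Miat), as did 8.8% of all genes. DESeq2 and limma on the deposited values called none. The 4 tumors enter this fit only through the estimate of the spread, and they vary more than the other libraries.

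In a fit of only SHH MB and P7 cerebella the same fold changes had far smaller errors, and 6 of 8 RNAs were called, where 23.7% of all genes were. Snhg11 was at −1.32 ± 0.12 (adjusted p = 4.88e-09), Rian at −1.34 ± 0.13 (adjusted p = 6.13e-09), Meg3 at −1.06 ± 0.14 (adjusted p = 9.54e-07), Mirg at −1.46 ± 0.32 (adjusted p = 0.00085), Miat at 1.29 ± 0.17 (adjusted p = 9.48e-07) and Malat1 at 0.36 ± 0.13 (adjusted p = 0.0446). Neat1 (0.27 ± 0.15, adjusted p = 0.218) and Sox2ot (−0.15 ± 0.21, adjusted p = 0.665) were not called. Neuronal and oligodendrocyte markers were lower in SHH MB as well, where all 6 genes of each of the Purkinje cell, inhibitory interneuron and oligodendrocyte lists had a fold change below 0 (medians −1.71, −1.68 and −1.74). Their part in the lower levels of Snhg11, Meg3, Rian and Mirg was not tested.

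Levels of different RNAs can be compared only per length. Per kilobase of the union of exons, SHH MB held 1384 ± 146 CPM of Malat1 (SD, n = 3), 107 ± 35.4 of Miat, 20.3 ± 2.34 of Meg3, 10.5 ± 1.11 of Snhg11, 3.19 ± 0.28 of Neat1, 1.62 ± 0.243 of Rian, 0.378 ± 0.0332 of Sox2ot and 0.273 ± 0.046 of Mirg. In this order no range of libraries overlapped with that of its neighbour. In P7 cerebella the order was Malat1 (1096 ± 109), Miat (44.2 ± 6.66), Meg3 (43.0 ± 8.52), Snhg11 (26.6 ± 3.26), Rian (4.18 ± 0.414), Neat1 (2.69 ± 0.721), Mirg (0.767 ± 0.184) and Sox2ot (0.428 ± 0.0261), and Miat and Meg3 did not differ beyond their spread.

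In tumors the mean was 2955 ± 2883 CPM per kilobase for Malat1, 106 ± 150 for Snhg11, 74.5 ± 77.2 for Meg3, 12.3 ± 8.26 for Neat1, 6.43 ± 4.36 for Miat, 3.52 ± 2.698 for Rian, 0.632 ± 0.655 for Mirg and 0.321 ± 0.172 for Sox2ot (SD, n = 4). The lowest tumor for Malat1 lay above the highest for Snhg11, and the ranges of all later neighbours in this order overlapped. Miat ranked 2 in both control groups and 5 in tumors. With the longest transcript as length, Malat1 stayed first in all 3 groups, Rian rose in rank in tumors and SHH MB and Sox2ot in tumors and P7 cerebella, and Miat and Meg3 changed places in P7 cerebella. Both lengths of Neat1 are 22397 bases, so its level per kilobase would be too low if its reads came mostly from shorter transcripts.

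**Figure D5:**
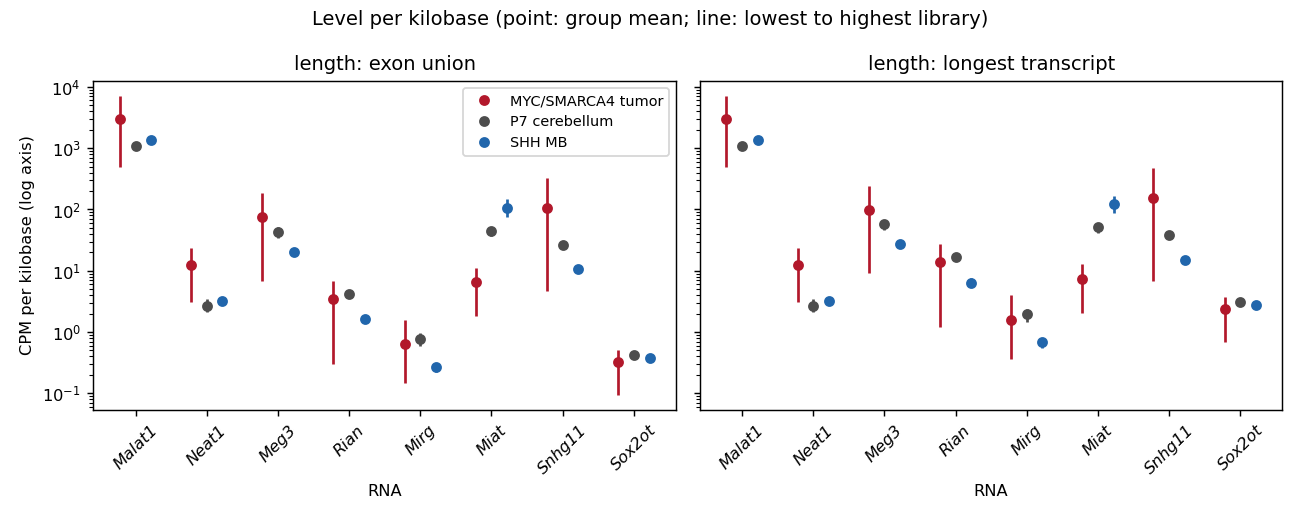
CPM per kilobase (y axis, log scale) of each RNA (x axis) in the 3 groups, with the union of exons (left) or the longest transcript (right) as length. Points are group means and lines run from the lowest to the highest library, and Malat1 was the most abundant per kilobase in each group.

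Other long noncoding RNAs of nuclei and nervous tissue were tested beside the 8. Of 14 on the list, 13 were tested, as Peg13 had no count in any library. Against P7 cerebella 2 fell and none rose, Pantr1 (−2.20 ± 0.49, adjusted p = 0.0239) and Rmst (−1.57 ± 0.41, adjusted p = 0.0421), both expressed in neural progenitors. Against SHH MB the same RNAs fell (−2.47 ± 0.49 and −2.24 ± 0.41) and Lncpint, a transcript linked to p53, rose (2.79 ± 0.70, adjusted p = 0.0387). Pantr1 and Rmst were lower in all 4 tumors than in all other libraries, as Miat was. Of all genes, 10.7% were lower without overlap in tumors against P7 cerebella and 8.3% against SHH MB.

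The medians of this list were 0.94 against P7 cerebella and 0.67 against SHH MB. Dlx6os1, an RNA of forebrain interneurons that the rule for named genes did not choose, had 1234 counts in tumor 4 and between 3 and 30 in every other library, and was not called (3.69 ± 1.35 against P7 cerebella). Tumor 4 was also the tumor with the high Dlk1 count.

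Of 12 other imprinted genes, H19 and Peg10 rose and Cdkn1c fell against P7 cerebella (4.60 ± 1.08, 3.28 ± 0.74 and −1.94 ± 0.39). Against SHH MB Peg10 rose (2.95 ± 0.73) and Grb10 fell (−1.91 ± 0.36). H19, an imprinted long noncoding RNA of fetal tissue, had 257, 16515, 5771 and 1370 counts in tumors 1 to 4 and between 264 and 696 in the other libraries. Of the tumors it was thus lowest in tumor 1, where Malat1, Meg3 and Snhg11 were highest. Peg10, a paternally expressed gene derived from a retrotransposon, had 263, 3979, 2245 and 10387 counts in tumors and 335 to 709 in the other libraries.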

How the data were processed

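RNA was extracted from FFPE tissue, depleted of ribosomal RNA and made into CORALL total RNA libraries. Per the labels, the authors used FastQC 0.73, Trimmomatic 0.38.1, STAR 2.7.8a, featureCounts 2.0.1 and DESeq2 2.11.40.7 with build GRCm39. The annotation and the strand setting of the counting were not given in the sources used here. Per gene symbol, the authors deposited raw read counts of each library. A further deposited table holds log2 values from the variance-stabilizing transformation in DESeq2. No deposited column was left unmapped to a sample (0 columns).

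Counts of all 10 libraries were fitted with edgeR 4.0.16 in R 4.3.3 (filterByExpr, TMM, quasi-likelihood test), with a mean per group and Benjamini-Hochberg adjustment over 29952 genes. Standard errors are the absolute log2 fold change divided by the square root of F. Levels are log2 CPM with TMM factors and a prior count of 2, and CPM use the same factors. A call needed an adjusted p of at most 0.05, and the thresholds the study gives (log2 fold change of at least 2.5, adjusted p of at most 0.01) were an alternative, as were DESeq2 1.42.0 and limma 3.58.1 on the deposited log2 values. Further alternatives were RLE factors, library sizes without the 8 RNAs and technical genes, other filters on low counts, fits of the groups compared alone, estimation robust to outlying genes, a replicate block, leaving out single libraries, p-values without adjustment, a prior count of 0.5 and the longest transcript as length. The 8 RNAs and the 19 lists beside them were chosen with earlier results of these data known.

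Genes named are the 8 RNAs, the 3 tested genes most correlated with each over the libraries (mean of at least 4 log2 CPM), the called genes with the largest increase and decrease of each list, all genes of lists with at most 4 genes, and genes that overlap the 8. Some genes that this rule names are not reported here. Further called genes of a list were named where they were few, and Dlx6os1, Srsf1, Rbm25, Rmst, the further cell type markers, Myc and Smarca4 were chosen after their values were seen. Positions and lengths come from GENCODE vM39, which is not the annotation of the counting. The labels do not say whether libraries came from separate litters, and p-values measure the spread between these samples. No 2 libraries of a group agreed within sampling noise. Floors cover counting error only, while the standard errors and SD given after ± include the spread between libraries. On simulated counts of 29952 genes for tumors against P7 cerebella, edgeR found 80 of 100 genes simulated with log2 fold change 4 and 25 of 100 with 2, and made 3 false calls. The simulation gave a gene the same spread in every group, whereas the measured tumors vary more than the other libraries. Its numbers of found genes and false calls therefore need not hold for these data.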

Additional observations from a re-analysis of the deposited data

Results flagged for a closer look

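The level of Son, a gene of nuclear speckle proteins, was 8.56 log2 CPM in tumor 3, while the other 3 tumors lay between 9.43 and 9.54, and the distance of tumor 3 from them was large for a group of 4 samples. In all, 69 levels and ratios were looked at in this way, of which chance flags about 1 in 20, and the levels of the 8 RNAs themselves were not among those that stood out.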

How the results depend on the processing

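Of 456 refits of the fold changes of the 8 RNAs under alternatives, 414 kept their direction and their side of the threshold, 26 lost a call, 15 gained one and 1 changed sign. The number of RNAs called against P7 cerebella (2) was 0 by the thresholds of the study and in a fit of only the groups compared, and 1 with limma. Against SHH MB (2) it was 4 by unadjusted p and with DESeq2, and 1 by the thresholds of the study, with limma, with RLE factors, with library sizes without the 8 RNAs and technical genes, and in the fit of only the groups compared. Between SHH MB and P7 cerebella (0) it was 2 by unadjusted p and 6 in the fit of only these groups.

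Neat1 against P7 cerebella was 1.92 with limma (adjusted p = 0.058) and 2.00 in the fit of only the groups compared (adjusted p = 0.105), and Miat was −2.89 in that fit (adjusted p = 0.0513). Neat1 against SHH MB was 1.62 with limma (adjusted p = 0.132), 1.95 with RLE factors (adjusted p = 0.0509), 1.93 with the changed library sizes (adjusted p = 0.0516) and 1.86 in the fit of only the groups compared (adjusted p = 0.145). Against SHH MB, DESeq2 called Meg3 (1.91, adjusted p = 0.0492) and Snhg11 (3.36, adjusted p = 0.0135), and the fit without a filter called Snhg11 (3.34, adjusted p = 0.0342). In the fit of only SHH MB and P7 cerebella, Malat1 (0.36), Meg3 (−1.06), Rian (−1.34), Mirg (−1.46), Miat (1.29) and Snhg11 (−1.32) were called. That fit holds no tumors, whose spread enters the fit of all libraries. The cause of the other changes was not tested.

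Leaving out 1 library gave 0 to 4 calls against P7 cerebella, 1 to 5 against SHH MB and 0 to 1 between SHH MB and P7 cerebella, with the most calls without tumor 3. Against P7 cerebella the fold changes ran from 0.54 to 1.55 for Malat1, 1.70 to 2.45 for Neat1, −0.17 to 0.97 for Meg3, −0.78 to −0.07 for Rian, −1.27 to −0.09 for Mirg, −3.18 to −2.58 for Miat and 0.27 to 2.24 for Snhg11. Against SHH MB they ran from 0.18 to 1.23 for Malat1, 1.43 to 2.08 for Neat1, 0.89 to 2.04 for Meg3, 0.56 to 1.31 for Rian, 0.19 to 1.39 for Mirg and 1.59 to 3.58 for Snhg11. Between SHH MB and P7 cerebella Rian ran from −1.46 to −1.25.

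The replicate numbers did not pair the samples, as the deviations of 9 same-numbered pairs had r from −0.27 to 0.16. With a replicate block 1 of the 8 RNAs, Miat, was called against each of P7 cerebella and SHH MB, and Neat1 was at 1.98 (adjusted p = 0.0972) and 1.70 (adjusted p = 0.147). Genes called over all genes numbered 1873, 1403 and 67 in the 3 comparisons, in the order given above. They numbered 229, 388 and 6883 in fits of only the groups compared, 370, 631 and 19 with the replicate block, 4485, 3062 and 465 with DESeq2, and 1120, 875 and 67 with limma. With the longest transcript as length 3 of 8 RNAs kept their rank per kilobase in tumors, 3 in P7 cerebella and 6 in SHH MB. The lowest count behind a level was 10, for Mirg in tumor 3.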
